A study of Mus musculus with 14 samples.

Results

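The chromatin around 8 genes of the BCL2 family was examined in splenic regulatory T cells (Tregs) with and without Atg14: the anti-apoptotic Bcl2, Bcl2l1 (Bcl-xL) and Mcl1, the BH3-only genes Bcl2l11 (Bim), Bbc3 (Puma) and Pmaip1 (Noxa), and the effectors Bax and Bak1. Bulk ATAC-seq counts the fragments that the Tn5 transposase cuts out of open chromatin. A region of the count table was assigned to a gene when the gene had the protein-coding transcription start nearest to the midpoint of the region, or when that midpoint lay inside the gene body. This rule gave 116 of 67254 regions: 32 for Bcl2, 34 for Bcl2l11, 17 for Pmaip1, 13 for Bcl2l1, 8 each for Mcl1 and Bbc3, and 2 each for Bax and Bak1. The rule uses positions and no measured value, although the 8 genes were chosen with earlier results of these data known. Of these, 110 passed the filter on low counts, and the 6 that did not were 2 regions each of Bcl2 and Bcl2l11 and 1 each of Bcl2l1 and Bbc3.

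The Tregs came from mixed bone marrow chimeras. Marrow from Foxp3Cre Atg14+/fl mice (control, which thus carry 1 floxed allele and the same Cre) or from Foxp3Cre Atg14fl/fl mice (Atg14-deficient) was combined 1:1 with CD45.1+ wild-type marrow, and the Rag1-/- recipients, which have no T or B cells of their own, received it after sublethal irradiation. After 6 to 8 weeks, Tregs of the CD45.2+ donor were sorted from the spleen by surface markers that include CD44, per the labels as central Tregs (cTregs, CD44-) and effector Tregs (eTregs, CD44+). There were 3 control and 4 Atg14-deficient libraries of each population, 14 in all. Cre under the Foxp3 locus deletes floxed Atg14 in Foxp3+ cells. The methods state that some Foxp3Cre Atg14fl/fl mice of the study carried an Atg14 allele deleted outside these cells as well, and the labels do not say whether donors of these libraries did. The labels used here gave no age for the donors and did not say whether cTreg and eTreg libraries of the same number came from the same mouse, so p-values measure the spread between these libraries, which may be partly technical. The comparisons addressed whether loss of Atg14, a subunit of the autophagy-related Vps34 complex, altered open chromatin at survival genes, and whether the effector state did.

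Proteins of the BCL2 family decide at the outer mitochondrial membrane whether a cell undergoes intrinsic apoptosis. BCL2, BCL-XL and MCL1 hold the pore-forming effectors BAX and BAK in check, and the BH3-only proteins BIM, PUMA and NOXA, made or released on cytokine withdrawal, p53 activation or other stress, bind the protective members and free the effectors to release cytochrome c. Treg survival is known to depend on MCL1, which is held up by IL-2 signaling, with BIM as its main opponent.

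Library totals ran from 2242983 to 5548189 counts, and values are given as CPM, counts scaled to a library total of 1000000. The 116 regions held between 0.124% and 0.155% of each library. Their mean count over libraries had a median of 24.9, and 81.8% of the counts in the tested regions of the whole table were even numbers, so the number of independent fragments may be lower than the count. The targeted gene could not be checked: the 5 regions of Atg14 summed to between 68.4 and 86.6 CPM in every library, and the labels do not place the floxed exons. Regions of Foxp3, Il2ra, Ikzf2, Ctla4, Cd3e and Cd4 were present in every library (the Foxp3 intron at 7.53 to 26.7 CPM). Together these 6 genes summed to 904 to 999 CPM in control and 953 to 1143 CPM in Atg14-deficient cTregs, 745 to 842 CPM in control eTregs and 940 to 1033 CPM in Atg14-deficient eTregs. Regions of the cTreg marker Ccr7 summed to 113 to 176 CPM in cTregs, 52.4 to 73.7 CPM in control eTregs and 83.6 to 104 CPM in Atg14-deficient eTregs, and those of Tcf7 to 192 to 224, 128 to 163 and 149 to 200 CPM. The eTreg genotypes thus did not overlap for the sum of the 6 genes or for Ccr7. Of the 6 genes by themselves, Ikzf2 (334 to 388 against 393 to 462 CPM) and Ctla4 (235 to 293 against 330 to 359 CPM) were higher in Atg14-deficient eTregs without overlap, whereas Foxp3, Il2ra, Cd3e and Cd4 overlapped, with Foxp3 at 14.3 to 19.9 CPM in control and 7.53 to 18.8 CPM in Atg14-deficient eTregs. The part of these genes in the genotype differences below was not tested. The eTreg list (Cd44, Prdm1, Icos and Klrg1) overlapped between cTregs and eTregs, at 855 to 1074 CPM against 941 to 1155 CPM, while within it Icos was lower in control eTregs than in control cTregs without overlap (219 to 231 against 281 to 321 CPM) and Klrg1 ranged higher (116 to 170 against 46.8 to 119 CPM). Among markers of other cells, Ms4a1, Csf1r and Lyz2 had no region, Cd79a, Itgam and Ncr1 were at 1.56 to 23.9 CPM, and Klrb1c regions summed to 273 to 320 CPM in cTregs and 219 to 247 CPM in eTregs, with a promoter region of at most 5.99 CPM. The 2 CD8 genes Cd8a and Cd8b1 also did not overlap between the cell states, at 24.5 to 43.6 CPM in cTregs and 8.13 to 18.9 CPM in eTregs. In control Tregs the sum of the 6 T cell and Treg genes did not overlap between the states, nor did Il2ra or Ctla4 by itself, while the other 4 overlapped. The part of these genes, Icos, Ccr7, Klrb1c and the CD8 genes in the differences between cTregs and eTregs below was not tested.

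The central 200 bases of 5 regions are shown because they were called lower in eTregs, 3 in the long intron of Bcl2 and 2 in the intergenic stretch downstream of Bcl2l11. They are the plus strand of GRCm38, with capitals marking letters that match a STAT (TTCNNNGAA), FOXO (TGTTTAC) or AP-1 (TGANTCA) motif on either strand.
Bcl2 +107.1 kb, chr1:106607043-106607242: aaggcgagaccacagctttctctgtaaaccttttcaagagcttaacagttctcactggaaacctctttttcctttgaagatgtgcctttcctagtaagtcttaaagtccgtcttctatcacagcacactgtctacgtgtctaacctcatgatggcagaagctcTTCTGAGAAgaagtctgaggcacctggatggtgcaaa
Bcl2 +100.7 kb, chr1:106613477-106613676: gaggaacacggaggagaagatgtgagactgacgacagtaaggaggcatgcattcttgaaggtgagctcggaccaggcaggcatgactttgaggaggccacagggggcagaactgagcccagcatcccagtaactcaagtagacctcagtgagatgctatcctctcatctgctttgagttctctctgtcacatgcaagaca
Bcl2 +97.1 kb, chr1:106617093-106617292: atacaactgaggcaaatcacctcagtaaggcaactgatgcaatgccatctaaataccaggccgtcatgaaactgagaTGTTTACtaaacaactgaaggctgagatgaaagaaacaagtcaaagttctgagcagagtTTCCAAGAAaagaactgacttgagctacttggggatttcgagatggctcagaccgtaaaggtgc
Bcl2l11 +62.8 kb, chr2:128190318-128190517: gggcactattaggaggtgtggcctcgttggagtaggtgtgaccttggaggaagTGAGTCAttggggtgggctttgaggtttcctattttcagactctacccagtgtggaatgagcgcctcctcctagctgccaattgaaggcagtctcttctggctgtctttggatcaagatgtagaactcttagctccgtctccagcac
Bcl2l11 +123.5 kb, chr2:128250942-128251141: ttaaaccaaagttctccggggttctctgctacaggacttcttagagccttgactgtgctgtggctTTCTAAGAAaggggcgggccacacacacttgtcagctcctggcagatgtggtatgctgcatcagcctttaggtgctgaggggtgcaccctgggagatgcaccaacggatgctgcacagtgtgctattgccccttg
Distances are from the nearest start of the gene to the midpoint of the region, positive downstream. A STAT match was present in 3 of the 5 sequences, a FOXO match in the +97.1 kb sequence of Bcl2, and an AP-1 match in the +62.8 kb sequence of Bcl2l11. None of the 8 motifs searched was found in the +100.7 kb sequence. The +107.1 and +100.7 kb sequences of Bcl2 also overlap an annotated exon of the noncoding gene Gm37053.

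The promoters of all 8 genes were open in every library, and none of their differences between groups passed the adjusted test in the main edgeR fit. Per length, over all 14 libraries, the promoter region of Bcl2l11 was the most accessible (109 CPM per kb), followed by Bcl2l1 (83.8), Bcl2 (82.0), Bbc3 (60.4), Mcl1 (58.0), Pmaip1 (52.6), Bak1 (43.5) and Bax (23.5). The effectors Bax and Bak1 were the lowest of these 8 regions on this scale. No promoter region among the 12 of the family passed the adjusted threshold in any comparison of the main fit. A call required an adjusted p below 0.05 and an absolute log2 fold change above 0.5. The Bax promoter passed between the Atg14-deficient states under 4 of 16 alternatives, given below. Over all 12334 promoter regions tested, 2.82% were called between the cell states in control and 8.11% in Atg14-deficient Tregs, and 0.0243% and 0.0324% between genotypes in eTregs and cTregs, so that 0 of 12 is near the background.

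**Figure D1:**
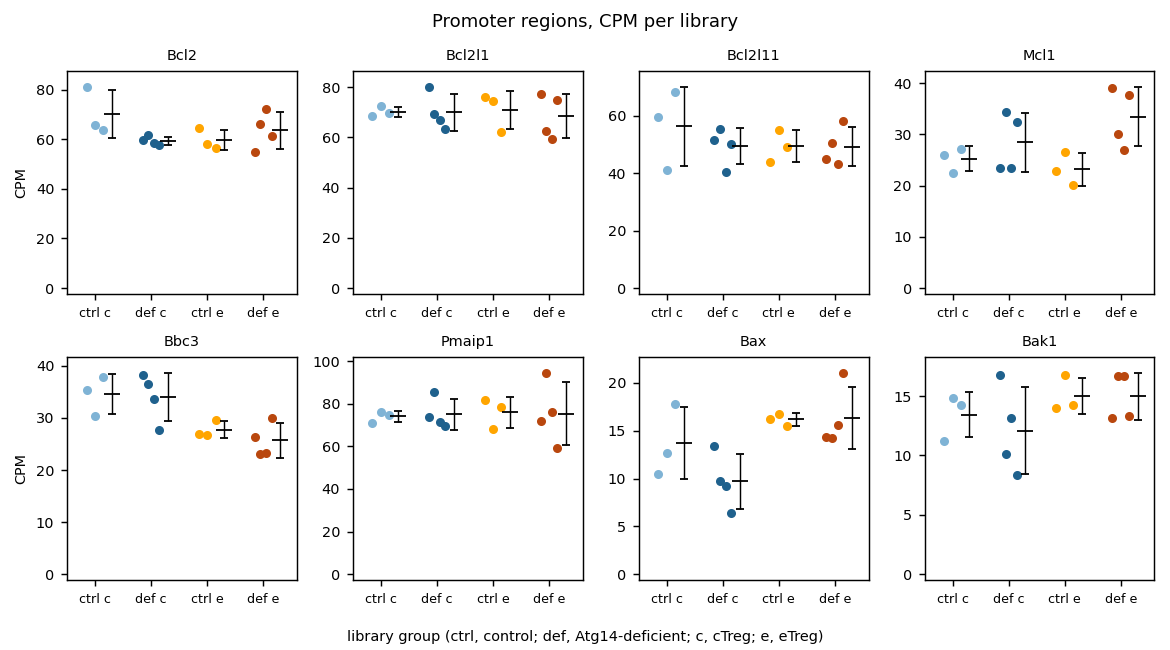
CPM of the promoter region nearest the start of each gene in the 14 libraries (points), with the mean and SD of each group beside them in black; the vertical scale differs between panels and starts at about 0. The Bcl2l1 and Pmaip1 promoters were level in all 4 groups, and the mean of the Mcl1 promoter was highest in Atg14-deficient eTregs.

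At the Bcl2 promoter (chr1:106713920-106714687; gene body chr1:106538176-106714290, minus strand), CPM was 81.1, 65.6 and 63.8 in control cTregs and 59.6, 61.5, 58.6 and 57.5 in Atg14-deficient cTregs. The corresponding eTreg values were 64.4, 58.3 and 56.6 in control and 54.8, 66.1, 72.3 and 61.1 in Atg14-deficient libraries. All 4 Atg14-deficient cTreg libraries were below the 3 control cTreg libraries, a log2 difference of -0.25 (SE 0.13, 95% interval -0.51 to 0.01, edgeR adjusted p = 1.000), while the eTreg groups overlapped. The Bcl2l1 promoter (chr2:152831086-152831918) had group means of 70.2 ± 2.01 (SD, n = 3), 70.0 ± 7.27 (n = 4), 70.9 ± 7.63 (n = 3) and 68.6 ± 8.90 CPM (n = 4) in the same order. The 95% interval of its log2 genotype difference was -0.27 to 0.25 in cTregs and -0.30 to 0.22 in eTregs. The Pmaip1 promoter (chr18:66457910-66459337), the most counted region of the family with 256 counts on average, was as level, with means of 74.0 ± 2.60, 75.0 ± 7.31, 76.1 ± 7.28 and 75.4 ± 14.7 CPM.

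The Bcl2l11 promoter (chr2:128127259-128127726) had means of 56.3 ± 13.8 CPM in control cTregs, 49.4 ± 6.31 in Atg14-deficient cTregs, 49.4 ± 5.60 in control eTregs and 49.3 ± 6.74 in Atg14-deficient eTregs, and the groups overlapped in all 4 comparisons. At the Bbc3 promoter (chr7:16309961-16310464), control libraries were at 35.4, 30.4 and 37.9 CPM in cTregs and 27.0, 26.8 and 29.6 CPM in eTregs, without overlap, for a log2 difference of -0.31 (SE 0.19, edgeR adjusted p = 0.392). The same difference in Atg14-deficient libraries was -0.40 (SE 0.17, adjusted p = 0.130). Neither passed the threshold. The Bak1 promoter (chr17:27028476-27028793), which lies in the body of the neighboring gene Ggnbp1, differed by -0.01 between genotypes in eTregs and by -0.15 in cTregs on the log2 scale, both smaller than their SEs of 0.26 and 0.27. The Bak1 region 1.1 kb downstream had a log2 genotype difference of 0.52 in eTregs (SE 0.29), which passed neither threshold.

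The Bax promoter (chr7:45466484-45467072) was at 10.5, 12.7 and 17.8 CPM in control cTregs and 13.4, 9.73, 9.20 and 6.42 CPM in Atg14-deficient cTregs. It was at 16.3, 16.8 and 15.5 CPM in control eTregs and 14.4, 14.2, 15.6 and 21.1 CPM in Atg14-deficient eTregs, so that among Atg14-deficient libraries every eTreg value exceeded every cTreg value. That difference was 0.77 on the log2 scale (SE 0.26) and missed the threshold, with an edgeR adjusted p of 0.0559. It passed with the replicate number as a block (edgeR adjusted p = 0.0295), although neither the labels nor the correlations between libraries establish that pairing. It also passed with the DESeq2 Wald test (0.0367), with at least 10 counts required in every library (0.0432) and without Atg14-deficient cTreg replicate 1 (0.0374). The other Bax region, 4.2 kb upstream and sparsely covered (14 counts on average), had a log2 genotype difference of 1.00 in eTregs (SE 0.55) and passed neither threshold in any comparison.

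Between the cell states, single distal regions of Bcl2 and Bcl2l11 and a region downstream of Pmaip1 were called lower in eTregs than in cTregs. Regions were assigned by position, and which gene a distal region acts on was not tested. In control Tregs, 6 of the 110 tested regions were called and all 6 were lower in eTregs, which is 5.45% of the family against 5.3% of all 61366 tested regions called in either direction and 3.29% called lower. In Atg14-deficient Tregs, 12 regions were called, 11 lower and 1 higher, 10.9% of the family against 9.81% of all regions (5.4% called lower and 4.41% called higher). Both shares were near those of all regions. Calls to the lower side made up all of the control calls of the family, against 2016 of 3251 over all regions. Without control cTreg replicate 2, 2 were higher and 4 lower (1792 and 1958 over all regions). With the replicate block, 1 was higher and 9 lower (2868 and 3499 over all regions). At the unadjusted threshold (p below 0.05 with the same fold cutoff), 19 regions passed in control Tregs, against 18.2% of all regions, with 1 of them higher in eTregs, against 7.76% of all regions. In Atg14-deficient Tregs 25 passed, 9 higher and 16 lower, or 22.7% against 23.1%. With loess offsets or DESeq2 size factors 22 passed in control Tregs (20.0% against 18.5% and 18.4% of all regions), 4 of them higher (3.64% against 8.86% and 8.62%). The eTreg and cTreg libraries did not overlap at 25 regions in control Tregs (22.7% against 26.0% of all regions) and at 18 in Atg14-deficient Tregs (16.4% against 15.5%). In these bulk libraries, fewer cells with an open region and less opening per cell cannot be told apart.

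The 6 control calls and 12 Atg14-deficient calls shared 5 regions, 83.3% of the former and 41.7% of the latter, and comprised 13 regions in all: 4 of Bcl2, 7 of Bcl2l11 and 2 of Pmaip1. No region of Bcl2l1, Mcl1, Bbc3, Bax or Bak1 was called by this test, although single regions of Bcl2l1, Mcl1, Bbc3 and Bax were called under some alternatives. None of the 13 differed in its cell-state effect between genotypes by the interaction term (all adjusted p at or near 1), so the different numbers of calls do not show that the genotypes differ there. The control comparison had 3 libraries a side and the Atg14-deficient one 4.

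**Figure D2:**
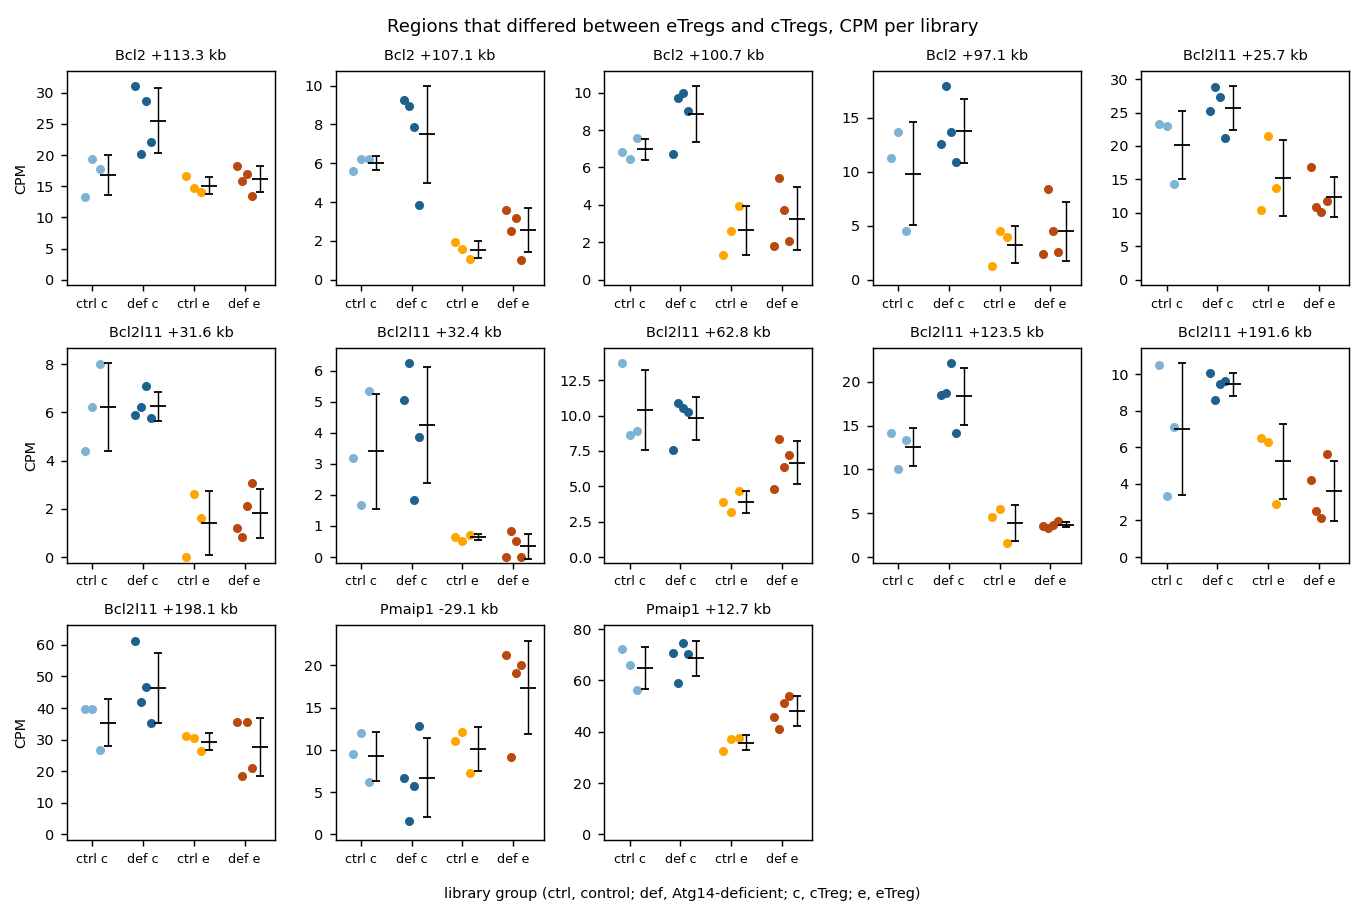
CPM of the 13 family regions called between eTregs and cTregs in either genotype, in the 14 libraries (points), with the mean and SD of each group in black; panel titles give the gene and the distance to its start, and the vertical scales differ. In 12 of 13 panels the mean of Atg14-deficient eTregs lies below that of Atg14-deficient cTregs, with no overlap at +123.5 kb of Bcl2l11, and in the -29.1 kb panel of Pmaip1 it lies above.

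The Bcl2 calls fell within a stretch of its long intron between 97.1 and 113.3 kb downstream of the start. At +97.1 kb (chr1:106617009-106617376), CPM was 11.2, 13.6 and 4.46 in control and 12.6, 17.9, 13.7 and 10.9 in Atg14-deficient cTregs. The eTreg values there were 1.30, 4.46 and 3.97 in control and 2.40, 8.37, 4.50 and 2.57 in Atg14-deficient libraries. The Atg14-deficient states did not overlap, while control cTreg replicate 3 sat at the level of the highest control eTreg library. The region fell by 1.58 on the log2 scale in control eTregs (SE 0.46, edgeR adjusted p = 0.0398) and by 1.68 in Atg14-deficient eTregs (SE 0.40, adjusted p = 0.00808). The latter held without any of its libraries, but the former was lost without control cTreg replicate 1 or 2 or any of the 3 control eTreg libraries (adjusted p of 0.0611 to 0.181), and in a fit limited to the compared groups (0.0568).

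The region at +107.1 kb (chr1:106606954-106607331) showed the same order with lower counts (14.4 on average). Its control cTreg values of 5.62, 6.22 and 6.24 CPM lay above control eTreg values of 1.95, 1.57 and 1.08 CPM, and its Atg14-deficient cTreg values of 9.24, 8.95, 7.89 and 3.85 CPM above Atg14-deficient eTreg values of 3.60, 2.51, 3.18 and 1.03 CPM, without overlap in either genotype. The log2 changes were -1.99 (SE 0.52, edgeR adjusted p = 0.0225) in control and -1.53 (SE 0.43, adjusted p = 0.0228) in Atg14-deficient eTregs. Both calls depended on single libraries: the control call was lost without control cTreg replicate 1 or 3 or any control eTreg library (adjusted p of 0.0518 to 0.0936), and the other without Atg14-deficient cTreg replicate 1, 2 or 3 or eTreg replicate 4 (0.0622 to 0.0883).

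At +100.7 kb (chr1:106613465-106613688), Atg14-deficient libraries were at 6.72, 9.73, 9.99 and 8.99 CPM in cTregs and 1.80, 5.44, 3.71 and 2.05 CPM in eTregs, and control libraries at 6.84, 6.46 and 7.58 and 1.30, 2.62 and 3.97 CPM. The populations did not overlap in either genotype. The region fell by 1.49 on the log2 scale in Atg14-deficient eTregs (SE 0.40, edgeR adjusted p = 0.0163, but 0.0593 to 0.0644 without Atg14-deficient cTreg replicate 3 or eTreg replicate 1 or 4). The control difference of -1.32 (SE 0.45) missed the threshold (adjusted p = 0.0847). With the replicate block the control difference passed (-1.42, edgeR adjusted p = 0.0338). The region at +113.3 kb (chr1:106600730-106601274) was called in Atg14-deficient Tregs alone, where 31.1, 20.2, 28.7 and 22.2 CPM in cTregs stood above 18.3, 15.9, 16.9 and 13.4 CPM in eTregs. Its log2 change was -0.66 (SE 0.22, adjusted p = 0.0459), and the call was lost without Atg14-deficient cTreg replicate 1 or 3 or any Atg14-deficient eTreg library (adjusted p of 0.0629 to 0.140), and in a fit limited to the compared groups (0.0567). The control libraries, at 13.2, 19.4 and 17.8 CPM in cTregs and 16.6, 14.7 and 14.1 CPM in eTregs, differed by -0.15 (SE 0.25), and the interaction of -0.51 (SE 0.33) did not pass.

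Of the 30 tested Bcl2 regions, 22 were lower in control eTregs than in control cTregs (21 with the other 3 scalings), with a median log2 difference of -0.30, and 18 were lower in Atg14-deficient eTregs, with a median of -0.22, where the medians of all tested regions were -0.01 and 0.02. The +101.5 kb region, next to the +100.7 kb call, was at 28.1 to 37.1 CPM on average in the 4 groups and differed by -0.09 and 0.16 on the log2 scale. The +66.7 kb region, at 30.7 to 38.1 CPM, differed by 0.25 in both genotypes.

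**Figure D3:**
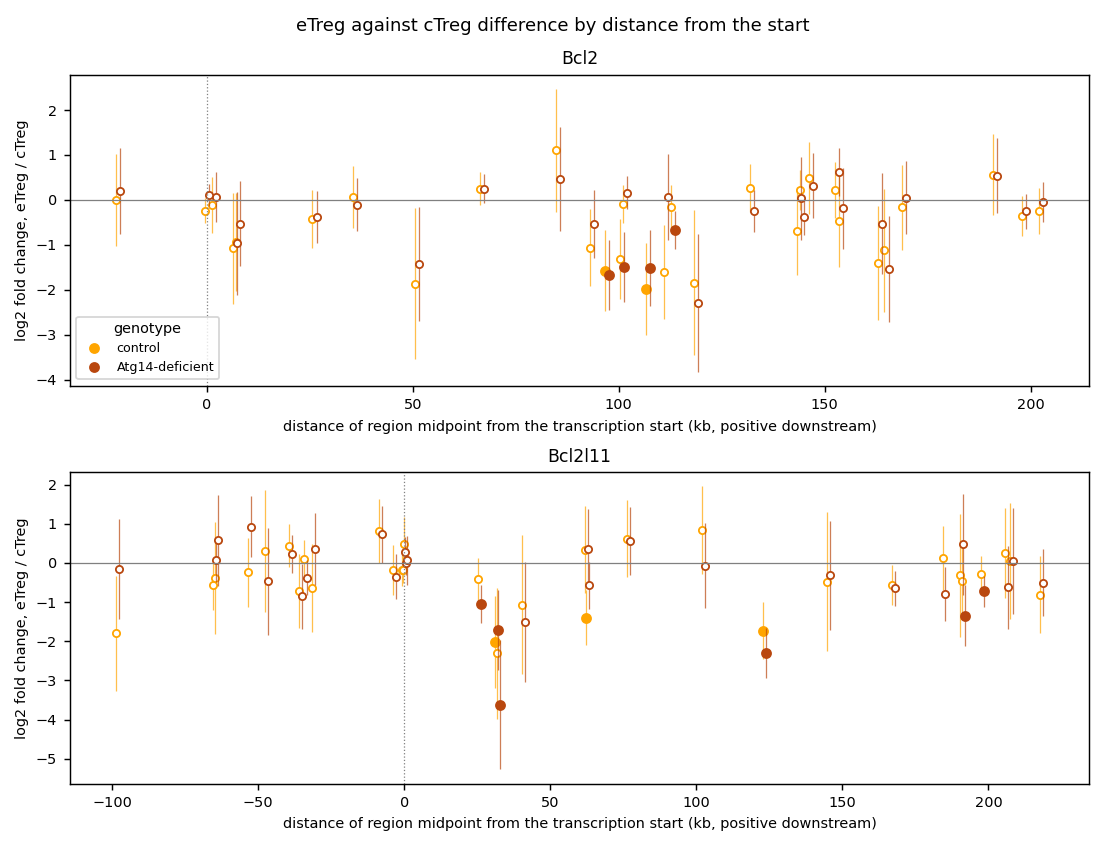
Log2 fold change of eTregs over cTregs at every tested region of Bcl2 (top) and Bcl2l11 (bottom) against the distance of the region from the nearest start in kb, for control and Atg14-deficient Tregs, with 95% intervals; filled points passed the adjusted threshold. The Bcl2 calls lie between 97.1 and 113.3 kb, those of Bcl2l11 between 25.7 and 198.1 kb downstream, and the promoter points lie close to 0.

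Bcl2l11, which encodes the BH3-only protein BIM, had the most calls. The region at +123.5 kb (chr2:128250866-128251217), intergenic, was at 14.2, 10.1 and 13.4 CPM in control cTregs and 18.5, 18.7, 22.1 and 14.1 CPM in Atg14-deficient cTregs. It was at 4.55, 5.51 and 1.62 CPM in control eTregs and 3.60, 3.35, 3.71 and 4.11 CPM in Atg14-deficient eTregs, and no eTreg library reached any cTreg library. The log2 changes were -1.73 in control (SE 0.37, edgeR adjusted p = 0.00594) and -2.30 in Atg14-deficient Tregs (SE 0.32, adjusted p = 8.86e-05). Both were kept under every alternative that tested the region, including leaving out each library in turn. The interaction was -0.57 (SE 0.50, adjusted p = 1.000).

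At +62.8 kb (chr2:128190229-128190606), control libraries were at 13.7, 8.62 and 8.92 CPM in cTregs and 3.90, 3.15 and 4.69 CPM in eTregs, without overlap, and the region fell by 1.40 on the log2 scale (SE 0.36, edgeR adjusted p = 0.0209). Without control cTreg replicate 1 or control eTreg replicate 1 or 2 the adjusted p was 0.0709 to 0.151. Atg14-deficient libraries were at 7.56, 10.9, 10.5 and 10.3 CPM in cTregs and 4.79, 8.37, 6.35 and 7.19 CPM in eTregs, which overlapped and differed by -0.57 (SE 0.31, adjusted p = 0.242).

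Inside the gene (chr2:128126038-128162547, plus strand), the intronic region at +25.7 kb (chr2:128152741-128153841) was at 25.2, 28.8, 27.3 and 21.2 CPM in Atg14-deficient cTregs and 16.8, 10.9, 10.1 and 11.8 CPM in Atg14-deficient eTregs. These did not overlap, the log2 change was -1.05 (SE 0.25, edgeR adjusted p = 0.00750), and the call was kept without any 1 of the 8 libraries. Control values of 23.2, 23.0 and 14.3 CPM in cTregs and 10.4, 21.5 and 13.7 CPM in eTregs overlapped and differed by -0.42 (SE 0.28). A pair of regions near the 3' end of the gene, both in an untranslated exon, had at most 3.08 CPM in any eTreg library.

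The region of that pair at +31.6 kb (chr2:128159050-128159386) was at 4.40, 6.22 and 8.03 CPM in control cTregs and 0, 2.62 and 1.62 CPM in control eTregs. Here 0 counts allow up to 0.976 CPM (3 counts, counting error only, each count taken as independent). As 81.8% of counts were even, such limits may be too low. Its Atg14-deficient values were 5.88, 6.23, 7.10 and 5.78 CPM in cTregs and 1.20, 0.837, 2.12 and 3.08 CPM in eTregs, and the states did not overlap in either genotype. The log2 changes were -2.02 (SE 0.60, edgeR adjusted p = 0.0437) and -1.72 (SE 0.52, adjusted p = 0.0324). With 13.0 counts on average, the control call was lost without any control cTreg library or control eTreg replicate 1 or 3 (adjusted p of 0.0721 to 0.155) and in a fit limited to the compared groups (0.0773), and the other without replicate 1, 2 or 3 of either Atg14-deficient population (0.0566 to 0.0948). At +32.4 kb (chr2:128159867-128160066), Atg14-deficient values were 5.04, 6.23, 1.84 and 3.85 CPM in cTregs and 0, 0.837, 0.529 and 0 CPM in eTregs, with 0 counts allowing up to 0.899 and 0.771 CPM in eTreg replicates 1 and 4. The fitted log2 change of -3.62 (SE 0.84, adjusted p = 0.00684) rests on a mean of 6.50 counts and depends on the prior count of the fit. It was kept without any 1 library. The control difference of -2.30 (SE 0.85) missed the threshold (adjusted p = 0.113).

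Farther downstream, the +198.1 kb region (chr2:128325413-128325914) was the largest of the called Bcl2l11 regions by count (119 on average), with 61.3, 42.0, 46.8 and 35.3 CPM in Atg14-deficient cTregs and 35.7, 18.4, 35.5 and 21.1 CPM in Atg14-deficient eTregs. The libraries overlapped slightly, and the log2 change of -0.73 (SE 0.20, edgeR adjusted p = 0.0225) was lost without Atg14-deficient cTreg replicate 1 or 3 or eTreg replicate 2 or 4 (adjusted p of 0.0608 to 0.101). The +191.6 kb region (chr2:128319007-128319329) fell by 1.35 on the log2 scale (SE 0.40, adjusted p = 0.0282), from 10.1, 8.56, 9.47 and 9.64 CPM to 4.19, 2.51, 2.12 and 5.65 CPM, a call lost without Atg14-deficient cTreg replicate 1 or 3 or eTreg replicate 1, 2 or 3 (0.0527 to 0.0883). The +167.6 kb region was called as well in Atg14-deficient Tregs with the replicate block (log2 change of -0.67, adjusted p = 0.0043), with TMM or loess scaling and in a fit limited to the compared groups (adjusted p of 0.0361 to 0.0436). Of the 13 regions upstream of the start that lie in the body of the neighboring gene Acoxl, 12 were tested and 0 were called. Over all regions 5.3% were called between the cell states in control and 9.81% in Atg14-deficient Tregs, so that 0 of 12 is near the background.

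Pmaip1, which encodes the MCL1-binding BH3-only protein NOXA, had calls in both directions. The region 12.7 kb downstream (chr18:66470615-66471941) was at 72.1, 66.1 and 56.2 CPM in control cTregs and 70.5, 58.8, 74.7 and 70.4 CPM in Atg14-deficient cTregs. It was at 32.5, 37.3 and 37.5 CPM in control eTregs and 45.8, 41.0, 51.4 and 53.9 CPM in Atg14-deficient eTregs, so that all 7 eTreg libraries were below all 7 cTreg libraries. Control eTregs were also below all Atg14-deficient eTregs, a log2 genotype difference of 0.43 (SE 0.15, edgeR adjusted p = 0.457) that is under the fold cutoff. The cell-state changes were -0.86 (SE 0.15, adjusted p = 0.00133) in control Tregs, kept without any 1 library, and -0.51 (SE 0.13, adjusted p = 0.0143) in Atg14-deficient Tregs, just past the fold cutoff and lost without cTreg replicate 1, 3 or 4 or eTreg replicate 1 or 2 of that genotype (log2 changes of -0.50 to -0.45).

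The region 29.1 kb upstream of Pmaip1 (chr18:66429161-66429806) was the one family region called higher in eTregs by this test, whereas with the replicate block the Bax promoter and a region each of Bcl2l1 and Bbc3 were called higher too. Its CPM was 6.72, 1.56, 5.78 and 12.8 in Atg14-deficient cTregs and 21.3, 9.20, 19.1 and 20.0 in Atg14-deficient eTregs, and 9.53, 12.0 and 6.24 in control cTregs and 11.1, 12.1 and 7.21 in control eTregs. The Atg14-deficient states overlapped through cTreg replicate 4 and eTreg replicate 2. The region rose by 1.36 on the log2 scale in Atg14-deficient eTregs (SE 0.37, edgeR adjusted p = 0.0206; 0.0514 to 0.0770 without Atg14-deficient cTreg replicate 1, 2 or 3 or eTreg replicate 1 or 4). The control difference was 0.08 (SE 0.42), and the interaction of 1.28 (SE 0.56) passed at the unadjusted threshold only.

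The other anti-apoptotic genes had no called region between the cell states by this test. All 8 Mcl1 regions were lower in control eTregs than in control cTregs under each of the 4 scalings, with a median log2 difference of -0.39, and the sum of the 6 T cell and Treg genes, 4 of which overlapped, was lower in the same libraries (745 to 842 against 904 to 999 CPM), a part that was not tested. The +7.6 kb region of Mcl1 passed with the DESeq2 Wald test (log2 change of -0.85, adjusted p = 0.0367) and with the replicate block (-0.88, adjusted p = 0.0264). In Atg14-deficient Tregs 4 were lower and 4 higher. Of the 12 tested Bcl2l1 regions, 9 were higher in eTregs in each genotype (8 with loess offsets in control and 8 with TMM in Atg14-deficient Tregs), and the +20.4 kb intronic region passed in Atg14-deficient Tregs with the replicate block (log2 change of 1.08, adjusted p = 0.0484) and without Atg14-deficient cTreg replicate 4 (1.42, adjusted p = 0.0305). The 5 Bcl2l1 regions between 41.0 and 64.0 kb lie inside its body but have the start of Cox4i2 nearest to them.

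Loss of Atg14 left the family without a called region in either population. In eTregs, 0 of 110 regions passed the adjusted threshold in edgeR, where 0.0228% of all regions did (14 of 61366), and DESeq2 called 0 as well. At an unadjusted p below 0.05, 10 passed, 9 of them with a log2 difference above 0.5, which is 8.18% of the family against 6.36% of all regions. Of these 9, 7 were higher and 2 lower in Atg14-deficient eTregs (4 and 2 with TMM or loess scaling), where 4.59% of all regions were higher and 1.77% lower. In cTregs, 0 regions passed the adjusted threshold in edgeR or DESeq2 (0.0163% of all regions in edgeR), and 4 passed the unadjusted one, 3 higher and 1 lower, 3.64% against 3.34% (1.99% of all regions higher and 1.35% lower). The genotypes did not overlap at 10 family regions in eTregs (9.09% against 8.48% of all regions) and at 10 in cTregs (9.09% against 5.5%). The difference between the genotype effects in eTregs and cTregs gave 0 adjusted calls by either tool (0.0% of all regions) and 4 unadjusted calls, 3.64% against 3.05%, with 3 positive and 1 negative (1.9% and 1.14% of all regions). The unadjusted shares were near those of all regions.

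**Figure D4:**
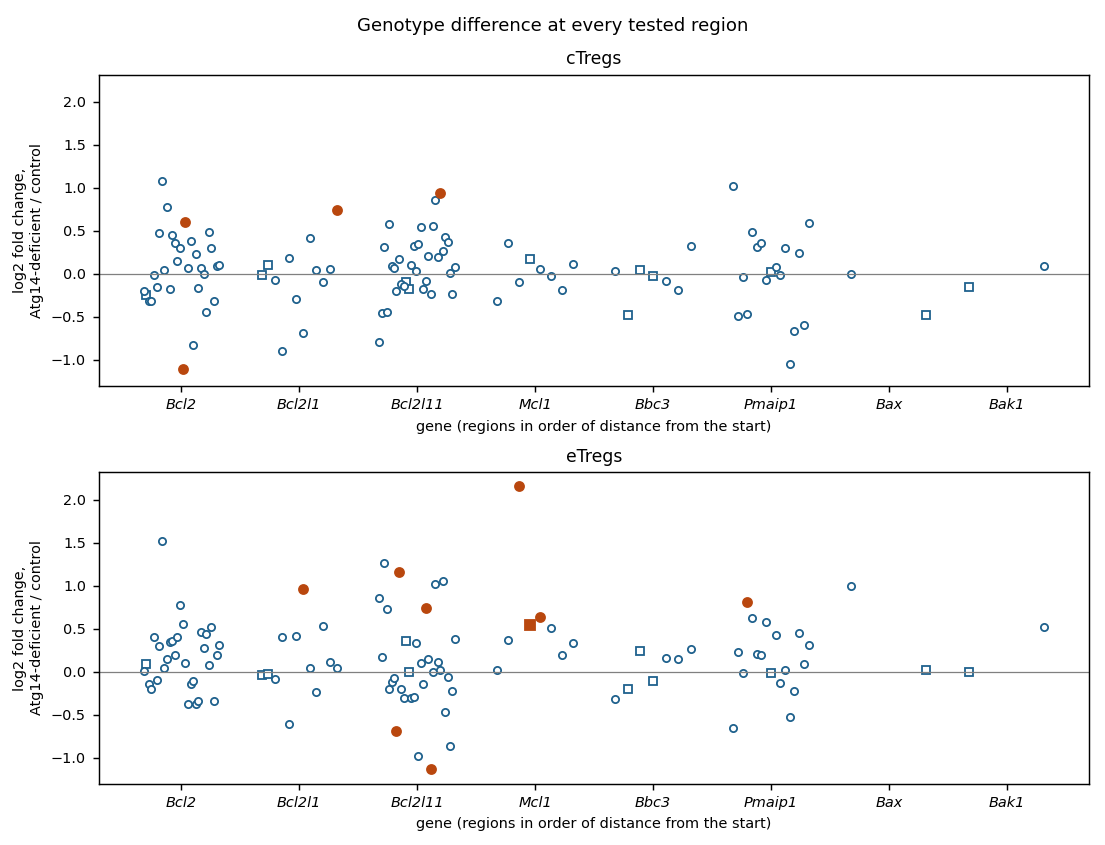
Log2 fold change of Atg14-deficient over control Tregs at each tested region of the 8 genes, in cTregs (top) and eTregs (bottom), with regions of a gene in order of distance from its start; squares are promoter regions, circles other regions, and filled symbols passed the unadjusted threshold. No region passed the adjusted threshold, and in eTregs all 8 Mcl1 regions lie at or above 0 with total-count scaling.

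The Mcl1 locus (chr3:95656944-95663179, plus strand) held 3 of the 9 unadjusted calls in eTregs. At its promoter (chr3:95658513-95658995), CPM was 22.8, 26.5 and 20.2 in control eTregs and 39.0, 30.1, 27.0 and 37.8 in Atg14-deficient eTregs, and 25.9, 22.5 and 27.2 and 23.5, 34.3, 23.4 and 32.4 in the corresponding cTregs. The eTreg genotypes did not overlap, by a narrow margin, and differed by 0.54 on the log2 scale (SE 0.20, 95% interval 0.14 to 0.93, edgeR adjusted p = 0.509). Over the alternatives the adjusted p was between 0.300 and 0.913.

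The region 4.6 kb upstream of Mcl1 (chr3:95652215-95652477), sparsely covered with 6.36 counts on average, was at 0.651, 1.57 and 0.360 CPM in control eTregs and 4.49, 4.18, 2.12 and 4.62 CPM in Atg14-deficient eTregs, again without overlap (log2 difference 2.15, SE 0.86, edgeR adjusted p = 0.541). The intronic region 0.8 kb downstream, named after its values were seen, was at 9.76, 7.87 and 9.91 and 13.2, 9.20, 16.1 and 18.0 CPM, which overlapped (log2 difference 0.63, SE 0.29). All 8 Mcl1 regions were higher in Atg14-deficient eTregs, with a median log2 difference of 0.43, where 56.2% of all regions were higher with a median of 0.06. With TMM, DESeq2 or loess scaling 7 of 8 were higher. Summed over the 8 regions, CPM was 62.1 to 69.8 in control eTregs and 82.8 to 108 in Atg14-deficient eTregs, against 79.5 to 93.6 and 77.3 to 98.9 in cTregs. In the same eTreg libraries the sum of the 6 T cell and Treg genes (745 to 842 against 940 to 1033 CPM) and Ccr7 (52.4 to 73.7 against 83.6 to 104 CPM) were also higher without overlap, and their part in the Mcl1 difference was not tested. The genotype difference in cTregs was 4 higher and 4 lower, and no Mcl1 region passed the test of the difference between populations.

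In eTregs the remaining unadjusted calls were scattered. Bcl2l11 had 4, with 2 in each direction. Its -33.8 kb region (chr2:128092055-128092492), in an intron of Acoxl, was at 25.4, 29.4 and 18.6 CPM in control and 17.4, 14.2, 15.4 and 13.4 CPM in Atg14-deficient eTregs, all 4 of the latter lower (log2 difference -0.69, SE 0.24, edgeR adjusted p = 0.457). Its -31.2 kb region (chr2:128094744-128094948) nearby went the other way, at 1.30, 3.67 and 0.901 and 4.49, 4.18, 4.24 and 4.37 CPM (log2 difference 1.15, SE 0.53, adjusted p = 0.594). The +62.8 kb region that fell in control eTregs was 0.74 higher in Atg14-deficient eTregs on the log2 scale (SE 0.35, adjusted p = 0.616), without overlap. The other 3 were +102.3 kb of Bcl2l11 (log2 difference -1.14, SE 0.54), +27.4 kb of Bcl2l1 (0.95, SE 0.39) and -29.1 kb of Pmaip1 (0.81, SE 0.38). Of these 3, the Bcl2l11 and Bcl2l1 regions were named after their values were seen.

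In cTregs, 2 of the 4 unadjusted calls were in the intron of Bcl2 and opposite in sign. The +113.3 kb region was higher in all 4 Atg14-deficient libraries (log2 difference 0.61, SE 0.23, edgeR adjusted p = 1.000), and the +111.5 kb region (chr1:106602692-106602964) was lower in all 4, at 6.84, 7.18 and 11.6 CPM in control and 3.36, 6.23, 4.73 and 1.28 CPM in Atg14-deficient cTregs (log2 difference -1.10, SE 0.49). The others were the +64.0 kb region of Bcl2l1 (chr2:152766520-152766831), at 4.40, 6.70 and 5.35 and 9.24, 8.18, 8.41 and 10.9 CPM (log2 difference 0.74, SE 0.36), and the +184.8 kb region of Bcl2l11 (chr2:128312117-128312604), at 3.91, 3.83 and 5.35 and 6.72, 10.9, 5.78 and 9.64 CPM (log2 difference 0.94, SE 0.39). These regions were chosen for groups that do not overlap, and their adjusted p-values were all at or near 1. The genotype effect differed between populations at the unadjusted threshold at 4 regions. At +27.4 kb of Bcl2l1 (chr2:152803113-152803511) control eTregs were at 2.60, 6.82 and 4.33 CPM and Atg14-deficient eTregs at 13.8, 5.86, 6.88 and 9.25 CPM, against 7.09, 12.0 and 7.13 and 5.04, 4.67, 6.84 and 5.14 CPM in cTregs, so that the genotypes were in opposite order in the 2 populations (log2 interaction 1.64, SE 0.54, edgeR adjusted p = 1.000). The others were +111.5 kb of Bcl2 (1.66, SE 0.72), +144.5 kb of Bcl2 (-0.61, SE 0.30) and -29.1 kb of Pmaip1.

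Among 3 lists of further apoptosis genes, the adjusted genotype calls were all at Bmf, which encodes a BH3-only protein related to BIM. The other BCL2 family genes (Bcl2l2, Bcl2a1a, Bcl2a1b, Bcl2a1d, Bcl2l10, Bok, Bad, Bid, Bik, Bmf and Hrk) had 27 tested regions at 8 genes, of which 2 were called higher and 0 lower in Atg14-deficient eTregs (7.41% against 0.0228% of all regions), and 1 higher and 0 lower in cTregs (3.70% against 0.0163%). The region 4.8 kb upstream of Bmf (chr2:118554247-118554822) was at 0.651, 7.35 and 5.77 CPM in control eTregs and 66.8, 47.7, 47.6 and 44.4 CPM in Atg14-deficient eTregs. In cTregs it was at 8.80, 4.31 and 13.4 CPM in control and 61.7, 52.9, 50.5 and 51.7 CPM in Atg14-deficient libraries, far above the control range in each population. The log2 changes were 3.40 in eTregs (SE 0.36, edgeR adjusted p = 1.04e-04) and 2.69 in cTregs (SE 0.35, adjusted p = 0.00185). The former held under every alternative that tested the region, whereas without control cTreg replicate 1 the latter had an adjusted p of 0.0787 at a log2 change of 2.74.

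At the Bmf promoter itself (chr2:118549503-118549899), CPM was 1.95, 6.82 and 6.13 in control and 21.6, 25.5, 15.9 and 21.1 in Atg14-deficient eTregs, and 5.38, 5.74 and 6.24 and 12.6, 14, 7.89 and 15.4 in the cTreg groups. The genotypes overlapped in neither population. The region rose by 2.02 on the log2 scale in Atg14-deficient eTregs (SE 0.33, edgeR adjusted p = 0.0113, but 0.179 without control eTreg replicate 1), and the cTreg difference of 1.10 (SE 0.34) did not pass (adjusted p = 1.000). Between the Atg14-deficient states, the promoter was called only with the replicate block, higher in eTregs (log2 change of 0.76, adjusted p = 0.0272). The interaction at the promoter was 0.92 (SE 0.48) and did not pass either. Control and Atg14-deficient libraries came from different donors, and the part of donor differences in the Bmf values was not tested.

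**Figure D5:**
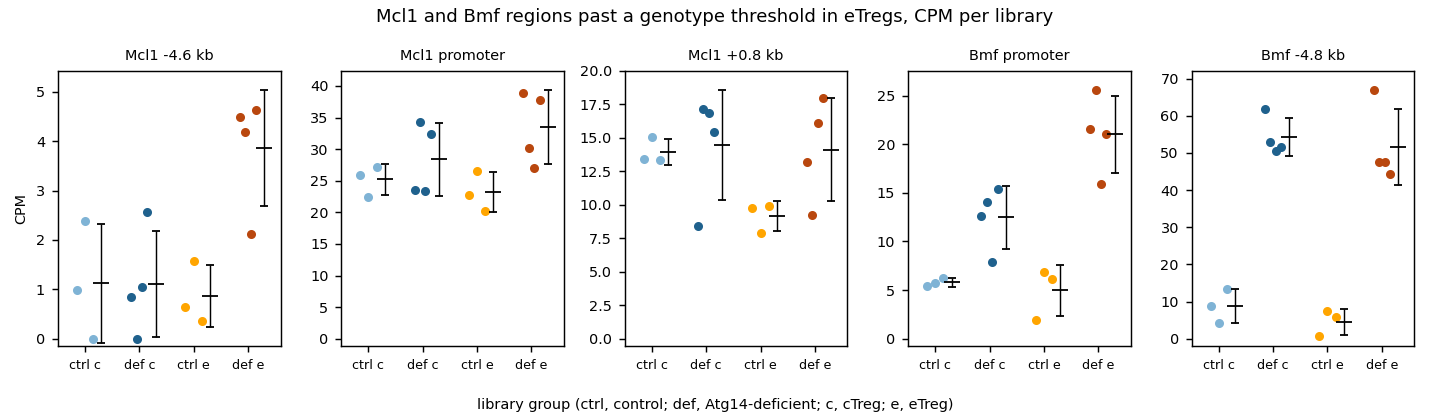
CPM in the 14 libraries (points) with the mean and SD of each group in black, at the 3 Mcl1 regions past the unadjusted threshold in eTregs and the 2 Bmf regions past the adjusted one; the vertical scales differ. The Mcl1 regions were higher on average in Atg14-deficient than in control eTregs and did not pass the adjusted test, whereas at -4.8 kb of Bmf all 8 Atg14-deficient libraries lie between 44.4 and 66.8 CPM and the 6 control libraries at or below 13.4 CPM.

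The death receptor genes (Fas, Fadd, Casp8, Cflar, Ripk1 and Tnfrsf10b, 30 tested regions) and the regulators (Trp53, Foxo1, Foxo3, Nfkb1, Rel, Stat5a and Stat5b, 95 regions) had 0 adjusted edgeR calls between genotypes in either population. The death receptor list had 5 unadjusted calls in eTregs, 3 higher and 2 lower (16.7% against 6.36% of all regions), and 2 in cTregs (6.67% against 3.34%). The regulators had 5 in eTregs (5.26%) and 1 in cTregs (1.05%). Between the cell states, regulators were called at 4 regions in control Tregs, all lower in eTregs, 3 of Nfkb1 and 1 of Rel, subunits of NF-kB, 4.21% of the list against 5.3% of all regions. In Atg14-deficient Tregs, 11 regulator regions were lower (4 each of Nfkb1 and Rel, 2 of Foxo3 and 1 of Foxo1) and 2 higher (Trp53 and Foxo1), 13.7% of the list against 9.81% of all regions. The other BCL2 family genes had 2 regions higher and 1 lower in each genotype, 11.1% of the list against 5.3% of all regions in control and 9.81% in Atg14-deficient Tregs. The death receptor list had 1 lower region in control Tregs (3.33%) and 0 calls in Atg14-deficient Tregs.

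Letters matching AP-1 were found in the central 200 bases of 25 of the 110 tested family regions (22.7%), against 11.5% of 61322 tested regions on chromosomes. With promoter regions left out of both, the shares were 25.5% of 98 and 13.5%. STAT letters were present in 13 family regions (11.8% against 6.08%) and RUNX letters (TGTGGTT) in 17 (15.5% against 10.0%). FOXO letters occurred in 4 (3.64% against 3.03%), NF-kB letters (GGGANTTCC) in 2 (1.82% against 1.79%), TCF letters (CTTTGAT) in 3 (2.73% against 3.79%), KLF letters (GGGNGTGG) in 11 (10.0% against 10.4%) and ETS letters (CCGGAAGT) in 0 (against 1.73%). Of the 13 regions called between cell states, STAT letters were in the Bcl2 regions at +113.3, +107.1 and +97.1 kb and in the Bcl2l11 regions at +32.4 and +123.5 kb, and AP-1 letters in those of Bcl2l11 at +31.6, +62.8 and +191.6 kb. These counts describe letters only, were given no test, and neighboring regions of a locus are not independent.

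Over the 14 libraries, the regions outside the family whose log2 CPM followed the Bcl2 promoter most closely, among 16633 with a mean count of at least 50, were the Entpd7 promoter (Pearson r = 0.790), a region near Zfp36 (0.752) and an intron of Ctse (0.750). For the Bcl2l11 promoter they were a region near Ptma (0.872) and the promoters of Nfkbib (0.833) and Praf2 (0.828). The libraries share their depth and group structure in these correlations, and the closest of all candidates were taken in each case.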

How the data were processed

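ATAC-seq was performed on 14 libraries of sorted splenic cTregs and eTregs. The authors trimmed and aligned the reads, marked duplicates, shifted reads for Tn5, kept nucleosome-free fragments, called MACS2 peaks per library, retained a peak when 50% or more of the libraries of its genotype had it, and after merging counted reads per region. The submitters' processing notes list cutadapt 1.9, Picard 1.65, SAMtools, MACS2 2.1.0.20150603 and bedtools. The methods name mm9 but those notes name GRCm38 (mm10), and all 67207 chromosomal regions lie within GRCm38 chromosome ends. Of 56164 annotated protein-coding starts, 20042 had a region midpoint within 200 bp, against 1079 after a shift of 20000 bp, so GRCm38 with its RefSeq annotation was used. The deposited values are raw counts per region, not normalized.

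Counts were fitted for all 61366 regions that passed filterByExpr, with the quasi-likelihood test of edgeR 4.0.16 in R 4.3.3 (robust, total-count scaling, 4 group coefficients, 14 libraries) and Benjamini-Hochberg adjustment over all regions. Calls required an adjusted p below 0.05 and an absolute log2 fold change above 0.5. The fit was checked on simulated counts. Alternatives were TMM, DESeq2 1.42.0 size factors, loess offsets, other filters on low counts, the DESeq2 Wald test, a fit of only the groups compared, a replicate block, other fold cutoffs, a narrower rule for assigning regions, and leaving out each library. Same-numbered Atg14-deficient cTreg and eTreg libraries deviated together (r of 0.119 to 0.243 in all 4 pairs). These numbers were treated as pairs from the data, not from the labels. Libraries of different genotype, from different donors, reached r as high (0.283 for control cTreg replicate 2 with Atg14-deficient cTreg replicate 4). The correlations therefore do not establish the pairing. No 2 libraries of a group agreed within the sampling noise of independent counts (chi-square per degree of freedom of 2.48 to 4.35). As 81.8% of counts were even, these values may be too high.

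Named regions were the promoter and most counted region of each gene, every region called, and per comparison up to 5 regions ranked by p that passed the unadjusted threshold without overlap of the groups. The genes and lists were chosen with earlier results of these data known. A promoter region covered an annotated start or had its midpoint within 1000 bp upstream to 100 bp downstream of it. Some listed genes and the results that need them are not reported here.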

Additional observations from a re-analysis of the deposited data

How the results depend on the processing

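Between genotypes, the adjusted count of called regions was 0 under every alternative run, in both populations and for the difference between them. The unadjusted count of 9 in eTregs became 4 with at least 10 counts in every library (7.41% against 7.12% of all regions). It became 4 with the replicate block (3.64% against 5.69%), 3 with a log2 cutoff of 1 and 5 with regions within 10 kb of the gene body. Leaving out single libraries gave 2 to 10. The count was 2 without control eTreg replicate 1 (1.82% against 4.65%) and 3 without Atg14-deficient eTreg replicate 4 (2.73% against 5.25%). Without control eTreg replicate 3 it was 4 (3.64% against 5.31%). In cTregs the count of 4 became 2 with at least 10 counts (3.70% against 2.76% of all regions). It became 1 with the replicate block (0.909% against 3.46%) and 1 with the cutoff of 1. Without single libraries it ran from 2 (1.82% against 3.01% to 3.35%) to 6 (5.45% against 4.28%). For the difference between populations the count of 4 became 0 with at least 10 counts (against 3.40% of all regions). Without single libraries it ran from 2 (1.82% against 3.22%) to 6 (5.45% against 3.81%).

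Between cell states, the 6 calls in control Tregs became 2 with at least 10 counts in every library (3.70% against 6.22% of all regions). Without single libraries they ran from 2 to 6. There were 2 without control cTreg replicate 1 (1.82% against 1.80%) or control eTreg replicate 1 (1.82% against 2.20%). Leaving out control eTreg replicate 2 (2.73% against 2.77%) or 3 (2.73% against 3.64%) left 3. A fit limited to the compared groups gave 4 (3.64% against 5.15%), as did leaving out control cTreg replicate 3 (3.64% against 2.58%). Without control cTreg replicate 2, 2 of the 6 calls were higher in eTregs, at +146.6 kb of Bcl2 and +43.5 kb of Pmaip1 (log2 changes of 1.43 and 3.69). The 12 in Atg14-deficient Tregs became 5 with at least 10 counts (9.26% against 12.4% of all regions). That count filter left 54 of the 110 regions. Without single libraries the count ran from 4 to 14. It was 4 without cTreg replicate 3 (3.64% against 4.49%) and 7 without eTreg replicate 4 (6.36% against 5.60%). Without cTreg replicate 1 (5.45% against 6.84%) or eTreg replicate 1 (5.45% against 6.07%) it was 6. Of the values of single named regions recomputed under these alternatives, none reversed.

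With the replicate block, the control count rose to 10 (9.09% of the family against 10.4% of all regions) and the Atg14-deficient count to 15 (13.6% against 15.5%). The 4 gained in control Tregs were +111.5 and +100.7 kb of Bcl2 and +7.6 kb of Mcl1, lower in eTregs, and -8.6 kb of Bbc3, higher (log2 changes of -1.76, -1.42, -0.88 and 0.65). Control pairs correlated at 0.0543 to 0.209, 2 of 3 above 0.1, so the control numbers were not taken as pairs. Among control libraries of the other population, all 6 control libraries correlated best with their own number. Over all libraries this did not hold, as control cTreg replicate 2 correlated more with Atg14-deficient cTreg replicate 4 (0.283). For the cell states and the difference between populations, the block was the number within a genotype. Between genotypes it was the number alone, which ties libraries of different donors. Those same-numbered libraries did not deviate together (r of -0.217 to 0.0914 in cTregs and -0.203 to 0.0118 in eTregs). The adjusted count of the family between genotypes stayed at 0 with this block. Over all regions, the DESeq2 Wald test called 56 in eTregs between genotypes, against 14 with edgeR, and 18 in cTregs, against 10. The median region of the family had 24.9 counts on average, which limits the precision of single-region values.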
